A study of Homo sapiens with 16 samples.

Results

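C7, CCL2, PTN and MDK encode 4 secreted factors, and their RNA was followed here through 603 single SK-N-AS cells. Each was found as a row of the deposited count table with that gene name, so that 4 of 27043 named rows are described, each a row of its own. They had been picked because earlier results of the same table showed them, and their levels are therefore given as a description. SK-N-AS is an established human neuroblastoma line without MYCN amplification. The cells were untreated, grown in RPMI1640 with fetal calf serum, lifted with versene and sorted singly into 384-well plates for MARS-seq, a method that counts RNA at its 3′ end. The labels give 16 samples of the line, but the columns of the table are barcodes that name none of them. All cells were therefore treated as 1 pool with no replicate, no test was made, and every interval is a 95% interval for counting error alone.

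C7 is a late component of the complement cascade. It joins the growing membrane attack complex after C6 and before C8 and C9, and is made by many cells outside the liver. CCL2 is a chemokine that draws monocytes through its receptor CCR2, and NF-kB is among the factors known to drive its gene. PTN (pleiotrophin) and MDK (midkine) form a family of heparin-binding growth factors. They bind proteoglycans, the receptor phosphatases PTPRZ1 and PTPRS, nucleolin and low-density lipoprotein receptor-related proteins, and signalling through ALK has also been described for both. Both are known from developing nervous tissue and from neuroblastoma.

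The table held 1537576 counts, between 1000 and 42404 per cell with a median of 2106. The deepest cell, with 2.76% of the total, was followed by one of 13400. Barcodes recur along the columns, and 239 of 364 are seen both in the first 316 columns (barcode set 1) and in the last 287 (barcode set 2). What these sets stand for is not given by the labels, and they were used only to check values. The line's mesenchymal and adrenergic markers were both present, with VIM at 5649 CPM (counts scaled to a fixed library total), AXL at 406 and HAND2 at 273 CPM. Markers of other cell types were mostly without a count: 13 of 17 immune, 7 of 11 endothelial, 8 of 11 Schwann cell precursor and 8 of 9 adrenal cortex markers, among them CD3D, CDH5, SOX10 and STAR. Fibroblast markers were an exception, with 3 of 11 at 0 and THY1 at 619 CPM. For a gene with no count in the pool, a count of 0 allows up to 1.95 CPM, the level of 3 counts, as a 1-sided limit, and the 2-sided interval used elsewhere reaches 2.40 CPM.

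C7 and PTN occurred together more often than their separate shares give, although most cells with either lacked the other, and the 250 bases before each of their RefSeq transcription starts (build GRCh38.p14) are shown for that reason. The C7 stretch lies at chr5:40909247-40909496 on the plus strand and the PTN stretch at chr7:137343734-137343983 on the minus strand. Capitals mark matches, on either strand, to GATAA (the core of a GATA-factor site), TGANTCA (AP-1) and the E-boxes CAGCTG and CATCTG.
C7: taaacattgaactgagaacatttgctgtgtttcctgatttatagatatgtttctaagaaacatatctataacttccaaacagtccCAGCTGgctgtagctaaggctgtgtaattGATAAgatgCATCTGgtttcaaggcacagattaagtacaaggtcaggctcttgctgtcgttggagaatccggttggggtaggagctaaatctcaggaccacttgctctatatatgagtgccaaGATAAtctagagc
PTN: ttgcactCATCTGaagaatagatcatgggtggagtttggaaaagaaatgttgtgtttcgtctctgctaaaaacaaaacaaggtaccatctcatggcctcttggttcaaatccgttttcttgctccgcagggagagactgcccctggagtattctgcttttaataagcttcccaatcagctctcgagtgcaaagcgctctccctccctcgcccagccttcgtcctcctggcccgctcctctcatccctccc
Counting back from the start, C7 held GATAA at -136 and -13, CAGCTG at -165 and CATCTG at -127. PTN held CATCTG at -243 and none of the other 3. GGAATG (TEAD) and TATAAA (the TATA box) were searched too and are not in capitals: C7 held TATAAA at -213, and no other match was found. Of 35116 such promoter windows, 20.4% held GATAA, 14% CAGCTG, 12.2% CATCTG, 11.9% GGAATG, 10.7% TATAAA and 6.57% TGANTCA. The letters searched were chosen after the sequences had been seen, and a match is neither a site nor a cause. Transcripts of the GENCODE v29 annotation begin inside both windows, so the starts used are not the only ones. The sequence table held no window for CCL2 or MDK.

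MDK was the most abundant of the 4 RNAs and CCL2 the scarcest. MDK had 651 counts in all cells, or 423 CPM (391 to 457), and ranked 372 among all rows. PTN had 373 counts, or 243 CPM (219 to 269). C7 had 235 counts, or 153 CPM (134 to 174), and CCL2 had 189 counts, or 123 CPM (106 to 142). The intervals of C7 and CCL2 overlap, so their order is not resolved, while those of PTN and MDK lie apart from each other and from both. These are 3′ counts and were not divided by transcript length. In the GENCODE v29 annotation 2 genes on the opposite strand overlap each of C7 (chromosome 5) and PTN (chromosome 7), and none overlaps CCL2 (chromosome 17) or MDK (chromosome 11). Whether strand was used in counting is not stated. Levels within the barcode sets differed most for C7, with 180 CPM (151 to 213) in set 2 and 127 CPM (103 to 155) in set 1. PTN had 266 and 220 CPM and CCL2 140 and 107 CPM in sets 2 and 1, and MDK was level at 421 and 426 CPM.

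The order of the levels was also the order of how many cells had any count. MDK was found in 336 of 603 cells, 55.7% (51.7 to 59.7), PTN in 138 cells, 22.9% (19.6 to 26.4), C7 in 106 cells, 17.6% (14.6 to 20.9), and CCL2 in 66 cells, 10.9% (8.57 to 13.7). Counts allotted to cells in proportion to their depth alone would have reached more cells: 362 for MDK, 256 for PTN, 182 for C7 and 153 for CCL2. MDK thus came close to such a spread, and CCL2 was the most gathered. Positive cells were deeper than negative ones in full counts, with median totals of 2405.5 and 2039 counts for C7, 2893 and 2039 for CCL2, 2432.5 and 1994 for PTN, and 2399 and 1690 for MDK. Cells were therefore also compared at equal depth.

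**Figure D1:**
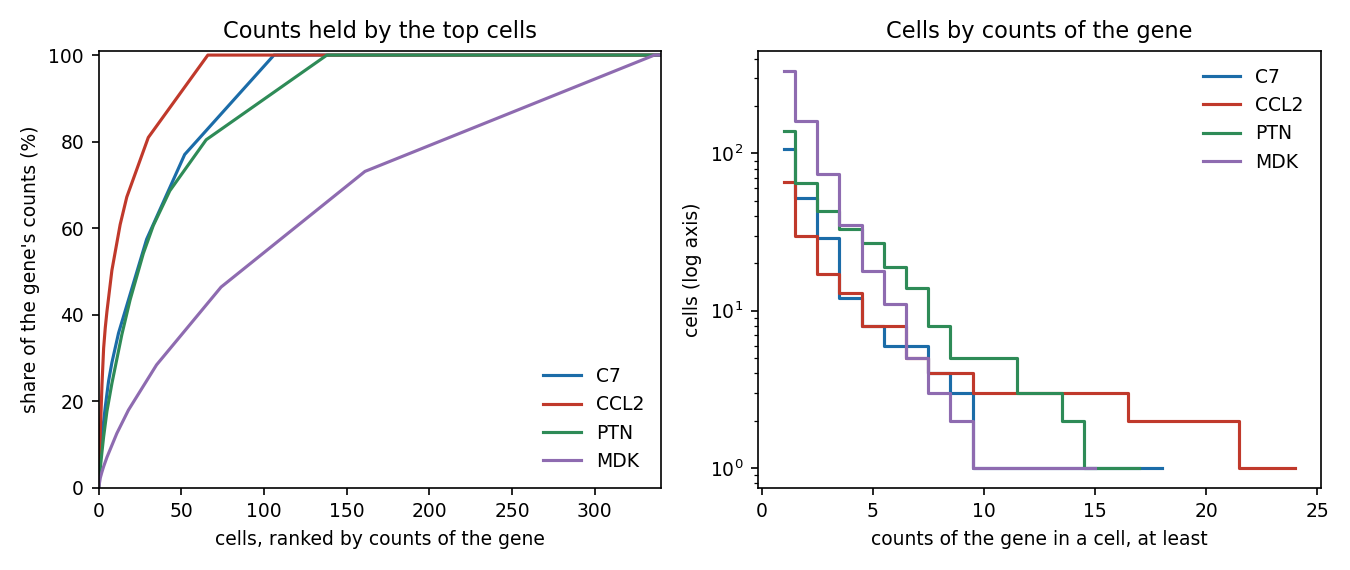
Left, the share of each gene's counts (y axis, %) held by its top cells, ranked by counts of that gene (x axis, cells). Right, the number of cells (y axis, log scale) with at least a given count of the gene (x axis). The CCL2 line climbs fastest, with 50% of the counts in 8 cells, and the MDK line slowest, with 86 cells for the same share.

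The counts of CCL2 came from few cells. Its 3 highest cells held 24, 21 and 16 counts, its top 10 held 54.5% of all its counts, and 36 of its 66 positive cells had 1 count. PTN was carried by a broader set: 27 cells with 5 or more counts held 54.2% of its counts, and the highest had 17, 14 and 13. C7 reached 18 counts in a single cell and 9 in each of the next 2, and 29 of its 106 positive cells had 3 or more. MDK had 1 count in 175 cells and 2 in 87, with a highest cell of 15, and its top 10 cells held 11.7% of its counts. The mean per positive cell was 2.86 for CCL2, 2.70 for PTN, 2.22 for C7 and 1.94 for MDK, and the median was 1 for all 4.

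At equal depth the same order held. Each cell was thinned at random to 1100 counts, which kept 560 cells and left out 43 shallower ones. MDK was then found in 35.0% of cells (31.0 to 39.1), PTN in 14.3% (11.5 to 17.5), C7 in 11.25% (8.75 to 14.2) and CCL2 in 7.14% (5.15 to 9.60). The Fano factor, variance over mean of the thinned counts, is near 1 for RNA spread evenly over cells. It was 2.96 for CCL2 and 2.62 for PTN, and 0 of the 200 genes nearest in mean exceeded either. It was 1.54 for C7, with 2 of 200 neighbours higher, and 1.26 for MDK, with 26 of 200 higher. In barcode set 2, 15.2% of cells had C7 (11.1 to 20.1), against 7.74% in set 1 (4.97 to 11.4). PTN was found in 16.3% and 12.5%, CCL2 in 8.75% and 5.72%, and MDK in 33.5% and 36.4% of the cells of sets 2 and 1.

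The complement genes around C7 were largely without counts. Of 40 complement components, receptors and regulators, 24 had no count, among them C3, which acts upstream, and C6, C8A, C8B and C9, the partners of C7 in the terminal pathway, and C5 had 3 counts. The membrane inhibitor CD59, which blocks the last step of that pathway, was the highest of the list at 314 CPM (287 to 343), with C7 next. CLU, a secreted chaperone that binds the terminal complex, stood at 77.4 CPM, the protease CFI at 64.4, C1QBP at 63.1, C1R at 50.7 and the cofactor CD46 at 25.4 CPM.

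CCL2 was nearly the only chemokine with counts. Of 32 chemokines, 26 had none. CXCL8, in a row under its older name IL8, had 18 counts or 11.7 CPM (6.94 to 18.5), and CXCL1, CX3CL1, CCL7 and CXCL2 had 1 or 2 counts each. Of 17 chemokine receptors with a row, CCR10 had 1 count and the rest none, the CCL2 receptor CCR2 included. Genes of the NF-kB response were present but uneven: IER3 had 578 CPM, RELA, the subunit that carries the transactivating domain, 98.2, and its inhibitor NFKBIA 91.7 CPM, while IL6, IL1A, IL1B and TNF had no count.

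Binding partners of PTN and MDK were found mostly among proteoglycans and nucleolin. NCL (nucleolin) had 809 CPM (765 to 855), the integrin ITGB1 193, the heparan sulfate proteoglycans SDC4 and GPC1 143 and 129, NRP1 100.2, the receptor phosphatase PTPRS 96.3 and LRP1 41.6 CPM. ALK and PTPRZ1 were among the 9 of 32 listed partners with no count. Of 56 other growth factors and cytokines, 14 had no count, and MIF led at 1779 CPM, followed by HGF at 222, GRN at 201, VEGFB at 195 and HDGF at 169 CPM. MDK stood above all of that list but MIF in CPM, and the intervals of PTN (219 to 269) and HGF (199 to 247) overlap.

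**Figure D2:**
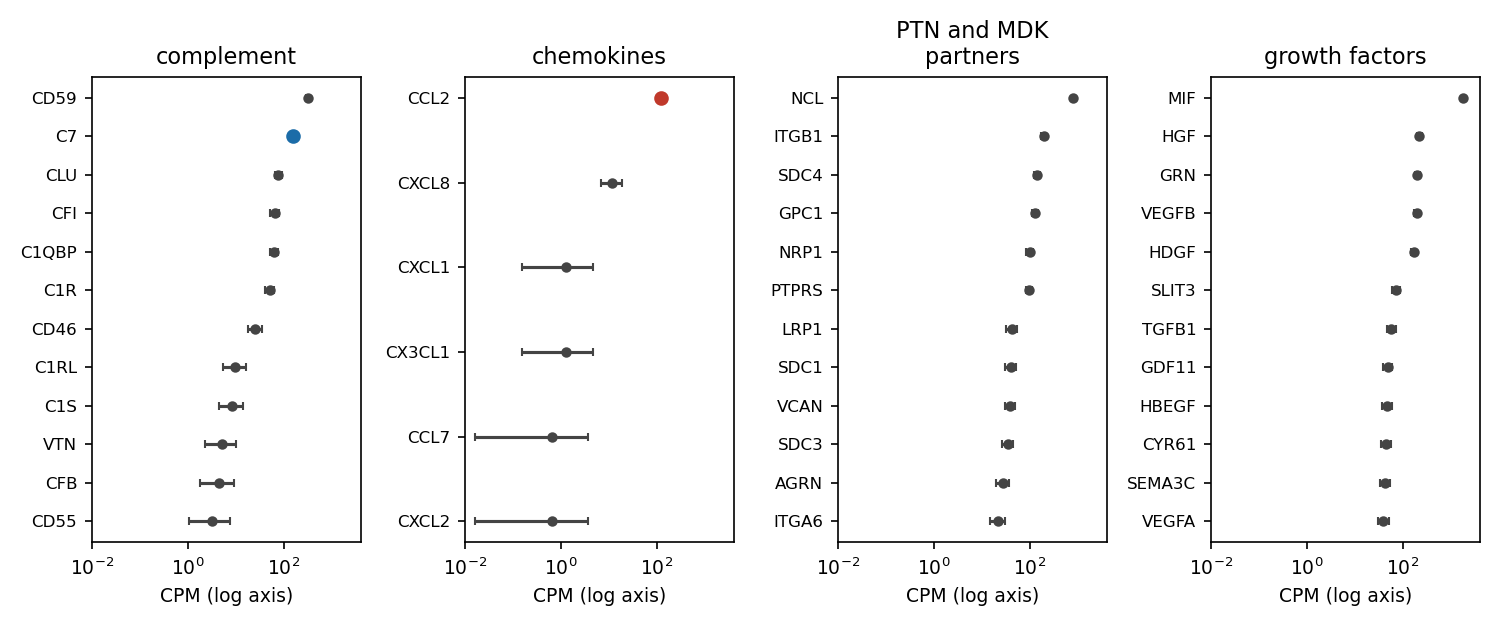
CPM in all 603 cells (x axis, log scale) of the genes with the most counts, up to 12 per panel (y axis), in 4 gene lists, with bars for 95% counting intervals. C7 (153 CPM, blue) is second to CD59 in the complement list, and CCL2 (123 CPM, red) stands above CXCL8 (11.7 CPM) and all other chemokines.

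The clearest pair was C7 with PTN. Among the 63 C7-positive cells at equal depth 24 had PTN, 38.1% (26.1 to 51.2), against 56 of 497 C7-negative cells, 11.3% (8.62 to 14.4). Independent shares would give 9 cells with both. Read the other way, C7 was found in 30.0% of PTN-positive cells (20.3 to 41.3) and in 8.12% of PTN-negative cells (5.84 to 10.9). The pair kept this direction in barcode set 1, with PTN in 30.4% of C7-positive (13.2 to 52.9) and 10.9% of C7-negative cells (7.51 to 15.3), and in set 2, with 42.5% (27.0 to 59.1) and 11.7% (7.76 to 16.6). In the full counts 56 cells had both, where 24.3 would be given by the shares, but there depth adds to co-occurrence. Spearman's rho of the thinned counts over the 560 cells was 0.26. PTN was also more abundant per cell, with a mean of 0.841 thinned counts in C7-positive and 0.187 in C7-negative cells.

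MDK leaned the same way with PTN and, less clearly, with C7. It was found in 48.75% of PTN-positive cells (37.4 to 60.2) and 32.7% of PTN-negative cells (28.5 to 37.1), that is 39 cells with both where 28 would be given by the shares. It was found in 46.0% of C7-positive cells (33.4 to 59.1) and 33.6% of C7-negative cells (29.5 to 37.9), and these intervals overlap. Both differences were smaller in barcode set 1, where MDK was in 40.5% of PTN-positive and 35.8% of PTN-negative cells, and in 39.1% of C7-positive and 36.1% of C7-negative cells. In set 2 MDK was in 55.8% of PTN-positive and 29.1% of PTN-negative cells. When cells were thinned to 700 counts, MDK was in 27.9% of PTN-positive cells and in 25.9% of all cells.

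By the share of cells, CCL2 was not detectably tied to any of the other 3 at this depth. It shared 4 cells with C7, where 4.5 would be given by the shares, 9 with PTN against 5.71, and 12 with MDK against 14. PTN was found in 22.5% of CCL2-positive cells (10.8 to 38.5) and 13.7% of CCL2-negative cells (10.8 to 16.9). With 40 CCL2-positive cells these intervals are wide. Of all 560 cells 280 had none of the 4 RNAs, 198 had 1, 66 had 2, 15 had 3 and 1 had all 4, where independent shares would give 257, 233.7, 62.5, 6.47 and 0.225 cells. Of the 15 cells with 3 members 12 held C7, PTN and MDK.

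**Figure D3:**
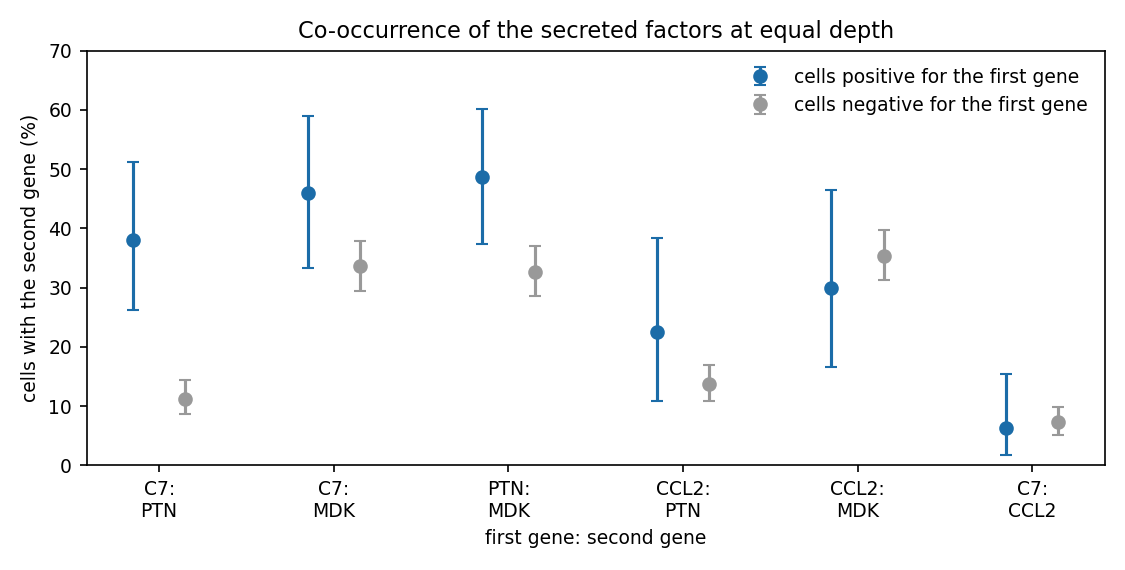
Share of cells with the second gene of each pair (y axis, %), among cells positive (blue) and negative (grey) for the first gene, at 1100 counts per cell, with exact binomial 95% intervals. Only for PTN by C7, at 38.1% and 11.3%, and MDK by PTN, at 48.75% and 32.7%, do the intervals of the 2 points lie apart.

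The cells with C7 differed in many other genes. Full counts were summed over the 63 positive and 497 negative cells and set against each other as a log2 ratio of CPM. Median totals were close, 2177 counts in positive and 2248 in negative cells, and the median ratio of the 2765 rows with at least 100 counts was -0.02. Set 1 made up 36.5% of the positive and 55.1% of the negative cells, and its part in the ratios was not tested beyond the values within each set. Of the 2765 rows 11% were higher in C7-positive cells by at least 0.5 on the log2 scale, and 17.4% were lower by as much. Genes are named by the bound of their interval nearest to 0 and are extremes of all ratios, which the intervals do not allow for.

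DDC, NPY, RET and CHGA, all known from sympathetic or neuroendocrine cells, were among the 8 rows named as higher with C7. DDC, the decarboxylase that makes dopamine, had 153 counts in positive cells and 139 in the far larger group of negative cells, that is 897 and 105 CPM and a log2 ratio of 3.09 (2.75 to 3.43). It was found in 46.0% of C7-positive and 6.44% of C7-negative cells at equal depth. Of the same adrenergic-state list as DDC, TH had 3 counts in the whole pool and DBH had 0. NPY, a peptide of sympathetic neurons, had 486 and 71.9 CPM in positive and negative cells, a ratio of 2.76 (2.32 to 3.20), and RET, the receptor for GDNF-family ligands, 252 and 42.4 CPM, a ratio of 2.57 (1.96 to 3.17). The vesicle protein gene D4S234E, now NSG1, was found in 54.0% of positive and 9.86% of negative cells, with a ratio of 2.54 (2.20 to 2.87). In both barcode sets these 4 ratios were above 2.

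A row that joins insulin with the INS-IGF2 readthrough, whose counts cannot be told apart, was high in the same cells. IGF2 has a row of its own, with 4 counts in the whole pool. The joint row had 3252 CPM in C7-positive and 492 CPM in C7-negative cells, a log2 ratio of 2.72 (2.56 to 2.89), and was found in 49.2% and 13.3% of them. The ratio was 3.61 in barcode set 1 and 1.76 in set 2, and 48.8% of the row's counts lay in 10 cells, without which it was 2.97 (2.74 to 3.20). With another random thinning the ratio was 2.34 (2.16 to 2.51), and with thinning to 700 counts 2.42 (2.24 to 2.59). FAM167A had a ratio of 2.97 (2.48 to 3.46) and was found in 41.3% of positive and 4.43% of negative cells, and SHD, an SH2-domain adapter gene, had a ratio of 2.88 (2.31 to 3.44). CHGA, the granule protein chromogranin A, had the highest ratio of those named, 3.16 (2.71 to 3.61), but 83.9% of its counts lay in 10 cells. Without those 10 cells its ratio was 1.59 (0.11 to 2.89). Barcode set 1 alone gave 4.59 and set 2 alone 1.88.

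The 5 rows named as lower with C7 included PLAT and SERPINB2, which act in the plasminogen system. PLAT, tissue plasminogen activator, had 10 counts in C7-positive and 528 in C7-negative cells, or 58.6 and 399 CPM, a log2 ratio of -2.77 (-3.84 to -1.88). SERPINB2, an inhibitor of plasminogen activators, had 5 and 435 counts and a ratio of -3.49 (-5.12 to -2.26). The crosslinking enzyme TGM2 had 9 and 526 counts, a ratio of -2.92 (-4.05 to -1.98), and was found in 1.59% of positive and 27.4% of negative cells. NRN1 (neuritin) had 6 and 385 counts, a ratio of -3.05 (-4.51 to -1.91), and TMEM158 had 1 and 179 counts, a ratio of -4.53 (-9.84 to -2.03).

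Among gene lists, 6 of the 8 adrenergic-state genes with at least 100 counts were higher with C7 and 1 was lower, against 11% and 17.4% of all rows, with a median log2 ratio of 1.11. The transcription factor genes GATA2 and GATA3 had ratios of 1.19 (0.78 to 1.58) and 1.02 (0.56 to 1.47), and TBX2 -0.68 (-1.14 to -0.24). Of 7 mesenchymal-state genes 3 were lower and none was higher: the receptor kinase AXL at -1.76 (-2.45 to -1.15), the hyaluronan receptor CD44 at -1.45 (-2.27 to -0.73) and the AP-1 member FOSL1 at -0.89 (-1.57 to -0.28). The interval of VIM lay between -0.10 and 0.10, and TWIST1 was at 0.13 (-0.59 to 0.78). Matrix genes went both ways, 4 higher and 6 lower of 15, with DCN (decorin) at 2.15 (1.68 to 2.61) and MMP2 at -0.99 (-1.34 to -0.66). Of 5 fibroblast markers 3 were higher and THY1 was lower, at -1.75 (-2.28 to -1.25), and the list's summed ratio was 0.21 (0.01 to 0.40). Endothelial markers gave 15 counts in positive and 27 in negative cells, a summed ratio of 2.11 (1.09 to 3.07), with CDH5 at 0 and most counts in FLT1 (39 in the pool). Immune markers gave 26 and 90 counts, a summed ratio of 1.16 (0.47 to 1.81), with CD3D at 0 and nearly all counts in CD68 (84) and PTPRC (29). With PTN the immune list was at 0.86 (0.17 to 1.51) and the endothelial list at 0.98 (-0.21 to 2.04). Their part in the C7 and PTN results was not tested.

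Other secreted factors were also higher in C7-positive cells. Of the 6 growth factor and cytokine genes with at least 100 counts 4 were higher and none lower, against 11% and 17.4% of the 2765 rows. These 4 were MIF at 1.24 (1.10 to 1.37), HGF at 0.89 (0.48 to 1.29), SLIT3 at 1.08 (0.35 to 1.76) and GRN at 0.60 (0.13 to 1.05). SLIT3 had a ratio of 0.19 (-1.0 to 1.20) without its own 10 highest cells. The complement list around C7 showed 0 of 2 such genes higher or lower, with CD59 at -0.12 (-0.57 to 0.31) and CLU at 0.01 (-0.95 to 0.85), while C1R, with 78 counts, had a ratio of 1.32 (0.46 to 2.1).

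Many of the genes named with C7 were named with PTN, and 24 of the 80 PTN-positive cells also had C7. The 80 positive and 480 negative cells had median totals of 2202.5 and 2243.5 counts, and 9.51% of the 2765 rows were higher and 15.1% lower by at least 0.5. The insulin row had 2770 CPM in PTN-positive and 496 CPM in PTN-negative cells, a log2 ratio of 2.48 (2.32 to 2.65), and was found in 55.0% and 11% of them. Its ratio was 1.90 in set 1 and 3.25 in set 2, and 1.59 (1.41 to 1.77) when cells were thinned to 700 counts. GCG, the glucagon precursor, had 425 and 55.1 CPM, a ratio of 2.95 (2.48 to 3.42), with 59.5% of its counts in 10 cells. CHRNA3, a nicotinic receptor subunit of autonomic ganglia, had a ratio of 2.30 (1.72 to 2.88), SHD 2.84, FAM167A 2.67, NPY 2.1 and D4S234E 2.06. DDC was at 2.09 (1.74 to 2.44) and was found in 28.75% of PTN-positive and 7.92% of PTN-negative cells, with a ratio of 3.12 in set 1 and 1.49 in set 2.

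Among the rows named as lower with PTN, PLAT had a ratio of -1.83 (-2.50 to -1.23) with PTN, SERPINB2 -2.07 (-2.89 to -1.36) and TGM2 -1.64 (-2.27 to -1.07). MFI2 (now MELTF, an iron-binding surface protein) had 6 counts in PTN-positive and 181 in PTN-negative cells, a ratio of -2.26 (-3.73 to -1.11). TNS3, an adhesion protein gene whose row is joined with AK310472, had 2 and 96 counts and a ratio of -2.93 (-6.00 to -1.04). With PTN, 6 of 8 adrenergic-state genes were higher and 0 lower, and 8 of 15 matrix genes were lower and 2 higher. Of the 2765 rows 9.51% were higher and 15.1% lower. SPARC, the most abundant matrix gene, was at -0.55 (-0.75 to -0.36) and COL1A1 at -0.90 (-1.43 to -0.41), while LUM (lumican) was at 0.70 (0.17 to 1.20) and DCN at 1.47 (0.98 to 1.95). COL1A1 pointed the other way with C7, at 1.06 (0.72 to 1.38), but was 0.02 (-0.53 to 0.53) there without its own 10 highest cells.

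Among the partners of PTN itself, PTPRS was higher in PTN-positive cells, at 0.85 (0.23 to 1.42), and SDC4 lower, at -1.30 (-2.24 to -0.50), out of 6 partners with at least 100 counts. NCL stood at 0.43 (0.21 to 0.64), under the 0.5 set for a count. Of 6 growth factor genes 4 were higher and none lower, against 9.51% and 15.1% of the 2765 rows. HGF was at 1.18 (0.81 to 1.54) and MIF at 1.13 (1.01 to 1.26). C7 itself was at 1.98 (1.58 to 2.37).

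**Figure D4:**
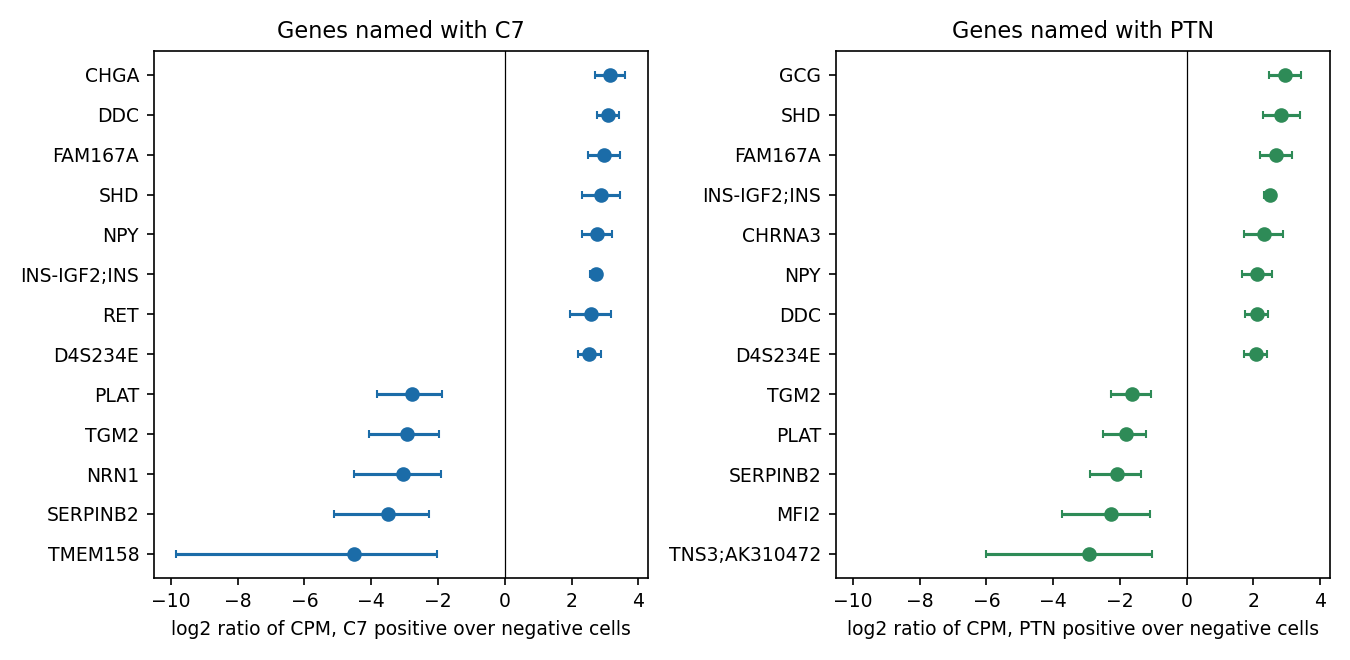
Log2 ratio of CPM (x axis) in positive over negative cells, for C7 (left) and PTN (right), of the 8 rows named as higher and the 5 named as lower (y axis), with exact 95% counting intervals. DDC at 3.09 with C7 and 2.09 with PTN, and PLAT at -2.77 and -1.83, show the same direction with both.

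Cells with C7 alone and with PTN alone could be looked at apart. At equal depth 24 cells had both, 39 had C7 without PTN, 56 had PTN without C7 and 441 had neither. The insulin row had 3334, 3205, 2519 and 249 CPM in these groups in that order, so that its CPM was high in all 3 positive groups. At equal depth the insulin row was found in 13 of the 39 cells with C7 alone. DDC had 1016, 827, 381 and 72.0 CPM, and FAM167A 540, 362, 275 and 28.0 CPM. The intervals of DDC in cells with C7 alone (664 to 1017) and with PTN alone (286 to 497) lie apart. SERPINB2 had 0, 46.4, 113 and 355 CPM, and TGM2 31.8, 65.0, 169 and 425 CPM. The insulin row, DDC, FAM167A, SERPINB2 and TGM2 were named by their ratios with C7 or PTN in these same cells. Their difference from cells with neither is therefore not a separate finding. Among the other secreted factors, MDK had 953 CPM (727 to 1226) in cells with both, 474 with C7 alone, 586 with PTN alone and 375 (341 to 412) with neither. CCL2 had 47.6 CPM (9.82 to 139), 242 (158 to 354), 141 (86.2 to 218) and 116 (97.5 to 137) in the same order. The CCL2 intervals with C7 alone and with neither lie apart, but at equal depth only 2 of the 39 cells with C7 alone had CCL2.

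The C7 and PTN pair was also looked at within cells grouped by other genes. In the 97 cells with that row C7 was found in 32.0% and PTN in 45.4%, and PTN in 58.1% (39.1 to 75.5) of C7-positive against 39.4% (27.6 to 52.2) of C7-negative cells. In the 463 cells without it C7 was found in 6.91% and PTN in 7.78%, and PTN in 18.75% (7.21 to 36.4) of C7-positive against 6.96% (4.75 to 9.79) of C7-negative cells. In each, PTN was more frequent with C7, with intervals that overlap. In the 499 cells without DDC, PTN was in 35.3% (19.7 to 53.5) of C7-positive against 9.68% (7.15 to 12.7) of C7-negative cells, and in the 541 cells without CHGA in 34.5% (22.2 to 48.6) against 10.7% (8.09 to 13.8). Without DDC or without CHGA the intervals thus lie apart, but the 541 cells without CHGA are nearly all of the 560. DDC, CHGA and the insulin row were named by their ratios with C7 in these same cells. A cell without a count may also hold the RNA. Whether the pair holds apart from these genes therefore cannot be told. In the 61 cells with DDC, PTN was in 41.4% (23.5 to 61.1) of C7-positive against 34.4% (18.6 to 53.2) of C7-negative cells. Of these cells 12 had both, where 10.9 would be given by the shares. In the 19 cells with CHGA, PTN was in 62.5% (24.5 to 91.5) against 36.4% (10.9 to 69.2). With DDC or with CHGA the intervals overlap.

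**Figure D5:**
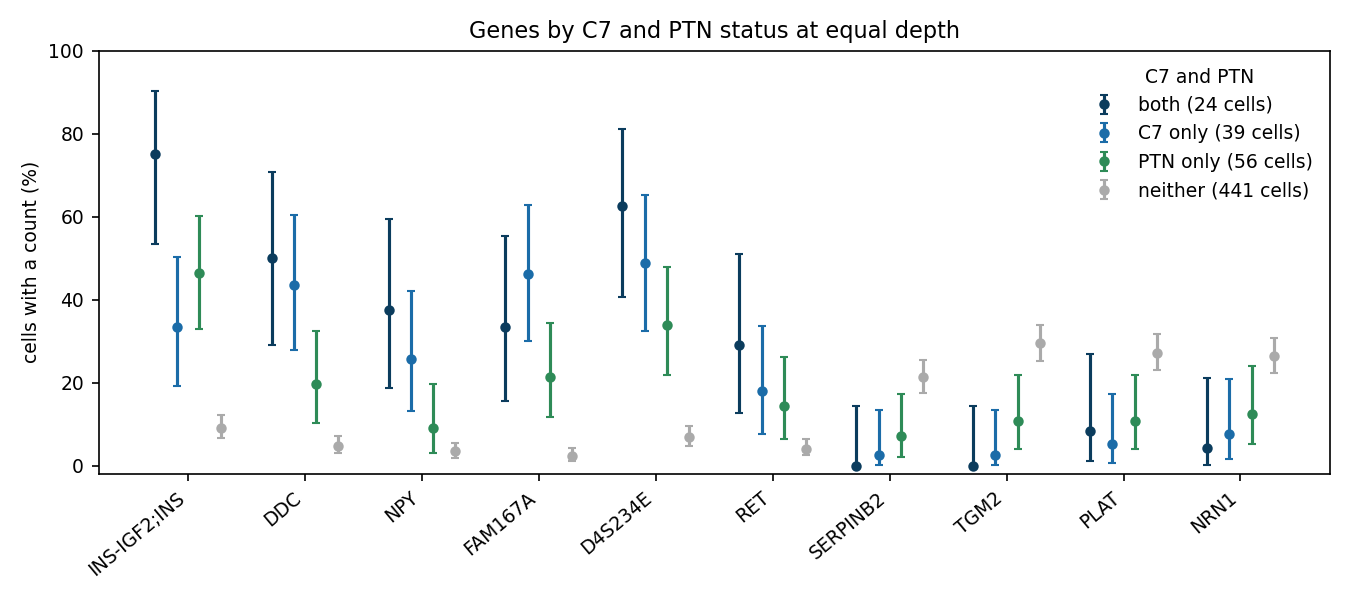
Share of cells with a count of each gene at 1100 counts per cell (y axis, %), in cells with both C7 and PTN, C7 only, PTN only and neither, from left to right for each gene (x axis), with exact binomial 95% intervals. The insulin row is found in 75.0%, 33.3%, 46.4% and 9.07% of these cells, and TGM2 in 0%, 2.56%, 10.7% and 29.5%. The genes shown were named by their ratios with C7 or PTN in the same cells.

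Several of the rows named with C7 and PTN were also named with MDK. Its 196 positive and 364 negative cells had median totals of 2235 and 2197 counts, and 3.4% of rows were higher and 4.12% lower by at least 0.5. Such shares also depend on how many counts the groups hold, and are not compared between the 4 members. The insulin row was at 1.49 (1.32 to 1.65), CHRNA3 at 1.61 (1.03 to 2.20), SHD at 1.64 (1.07 to 2.23), FAM167A at 1.08 (0.59 to 1.57) and RET at 1.12 (0.53 to 1.72). The insulin row was at 0.49 (0.32 to 0.66) when cells were thinned to 700 counts. CHGA was at 2.08 (1.60 to 2.57), but at 5.13 in barcode set 1 and 0.71 in set 2, and at 0.33 (-0.14 to 0.78) after thinning to 700 counts, and 83.9% of its counts lay in 10 cells. SFRP1, a secreted Wnt antagonist, was at 1.05 (0.58 to 1.52), with 0.29 in set 1 and 1.87 in set 2. PTN was at 0.95 (0.64 to 1.25), with 360 CPM in MDK-positive and 187 CPM in MDK-negative cells. With MDK, 4 of 8 adrenergic-state genes were higher and 0 lower, with DDC at 0.86 (0.52 to 1.20).

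Lower with MDK were BC064137, a row with no current gene symbol, at -1.27 (-1.98 to -0.61), the neuropeptide precursor VGF at -0.73 (-0.97 to -0.49), the tyrosine-breakdown enzyme FAH at -0.81 (-1.15 to -0.47) and SERPINB2 at -0.75 (-1.08 to -0.43). CCL2 was named too, at -1.13 (-1.71 to -0.59), with 35 counts in MDK-positive and 151 in MDK-negative cells. That value rests on few cells: without the 10 cells highest in CCL2 it was 0.045 (-0.66 to 0.72).

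Of the 13 genes named with CCL2, between 2 and 6 were named again under the other settings. The 40 positive cells include the deepest cell, which gave 26.0% of their counts, and their median total was 2629.5 counts against 2191 in the 520 negative cells. Of the 2765 rows 8.43% were higher and 9.8% lower by at least 0.5. PTX3, the secreted pentraxin that binds C1q, had 759 CPM in CCL2-positive and 332 CPM in CCL2-negative cells, a log2 ratio of 1.19 (0.90 to 1.49), and 1.48 (1.17 to 1.78) without the deepest cell. It was found in 32.5% of positive and 21.4% of negative cells. DDC was at 1.07 (0.64 to 1.49), with 1.63 in barcode set 1 and 0.62 in set 2, and at 0.50 (-0.16 to 1.11) without the 10 cells highest in DDC. CHGA was at 1.64 (1.12 to 2.13), but at -2.69 in set 1 and 2.69 in set 2.

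The other genes named as higher with CCL2 were the splicing regulator SFSWAP at 1.33 (0.77 to 1.87) but 0.44 (-0.43 to 1.21) with another random thinning, CTCF at 1.38 (0.63 to 2.07), the RNase P subunit RPP25 at 1.25 (0.53 to 1.92), the dynein heavy chain DYNC1H1 at 1.09 (0.59 to 1.56) and the replication helicase subunit MCM4 at 1.03 (0.52 to 1.52). Without the deepest cell DYNC1H1 was at 0.49 (-0.20 to 1.12) and MCM4 at 0.50 (-0.21 to 1.15). Lower were MED8 at -2.56, TSSC1 (now EIPR1) at -2.18, RNF8 at -2.12, DGCR6L at -2.09 and METTL2A at -1.50, on 2 to 8 counts in positive cells. Of 3 NF-kB response genes with at least 100 counts 1 was higher, RELA at 0.75 (0.07 to 1.38), and the list's summed ratio was 0.28 (0.07 to 0.48), or 0.23 (-0.02 to 0.46) without the deepest cell. The matrix proteoglycan BGN was at 0.73 (0.28 to 1.16) and COL1A1 at 0.83 (0.47 to 1.18). Of 15 matrix genes 3 were higher and 0 lower, against 8.43% and 9.8% of the 2765 rows. Without the deepest cell 2 were higher and 2 lower, with a median log2 ratio of -0.21. The summed ratio of the matrix list was 0.13 (0.04 to 0.21), or 0.05 (-0.05 to 0.15) without that cell.

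Summed over the 30 listed G1/S cell cycle genes, the log2 ratio was 0.21 (0.11 to 0.32) with PTN, 0.19 (0.07 to 0.31) with CCL2, 0.14 (0.06 to 0.22) with MDK and -0.07 (-0.20 to 0.05) with C7. From thinned sums the intervals for PTN (-0.02 to 0.32) and CCL2 (-0.02 to 0.43) include 0. Summed over the 34 listed G2/M genes, the log2 ratio was -0.03 (-0.13 to 0.07) with C7, -0.10 (-0.19 to -0.0009) with PTN and 0.01 (-0.06 to 0.07) with MDK. With CCL2 it was 0.20 (0.10 to 0.30), and 0.23 (0.12 to 0.34) without the deepest cell. From thinned sums the CCL2 value was 0.19 (0.0003 to 0.38). The median over the 20 of these genes with at least 100 counts was then -0.10, against 0.19 from full counts. In the list of heparan and chondroitin sulfate synthesis genes, whose products build the chains that PTN and MDK bind, the summed ratio was -0.03 (-0.25 to 0.19) with PTN and 0.26 (0.10 to 0.41) with MDK. CHPF, a chondroitin polymerizing factor with 88 counts in the pool, was at 1.37 (0.63 to 2.06) with PTN and 0.78 (0.13 to 1.42) with MDK. Of the 3 genes of that list with at least 100 counts, 0 were higher and 1 lower with PTN. With MDK 1 was higher and 0 lower. Of the 2765 rows 9.51% were higher and 15.1% lower with PTN, and 3.4% and 4.12% with MDK.

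Ranked by Spearman's rho over the 560 thinned cells among 2050 rows, FAM167A at 0.41, DDC at 0.41, D4S234E at 0.40, NPY at 0.33 and the insulin row at 0.31 were most like C7. The insulin row at 0.42, D4S234E at 0.32, GNAS at 0.29, GCG and PCOLCE, each at 0.27, were most like PTN. GNAS, a G-protein subunit gene, and PCOLCE, an enhancer of procollagen processing, had log2 ratios of 0.97 (0.84 to 1.10) and 1.34 (1.13 to 1.55) in PTN-positive over PTN-negative cells. The highest rho with CCL2 was 0.19, for BGN, and with MDK 0.14, for PTN itself, and no finding is drawn from values so low. These cells share 1 table, its depth per cell and its plates.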

How the data were processed

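The authors deposited raw counts, whole numbers for every gene in every cell. The submitters' processing notes name Bowtie2 2.1.0 and the build hg19. Not given in the sources used here are the counting tool, its annotation, any filter on cells, and whether a count is a molecule or a read. All 603 columns were used, no doublet caller was run because cells were sorted singly, and a row named unknown with 2 counts was left out. Totals per cell are between 1000 and 42404 counts, so that 1 count is up to 1000 CPM of a cell.

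Levels are CPM of summed counts with exact Poisson 95% intervals, and shares of cells carry exact Clopper-Pearson 95% intervals. If a count is a read, several counts may stem from 1 molecule, and all intervals cover counting error only. For equal depth, 1100 counts were drawn without replacement from each cell (random seed 1). Cells with at least 1 thinned count of a gene are positive and the rest negative. Their full counts were summed, and log2 ratios of CPM were given exact conditional binomial intervals. The gene itself stayed in the totals and was left out of the rows named and of the list sums. Rows are named among those with at least 100 counts in all cells: the 8 highest and 5 lowest ratios by the bound nearest 0, the 5 highest Spearman's rho among rows with a thinned mean of at least 0.1, and up to 6 leading members of each gene list. Other list members named were chosen after their values were seen. Some listed genes count towards list totals but are not reported here by name. List members counted as higher or lower have at least 100 counts and a log2 ratio beyond 0.5. The members, the lists and the settings were chosen with earlier results of these data known. A planned count model needs samples and was not run. The ratio script was tested on simulated data drawn with counting error alone. That test cannot show how the intervals hold for genes whose counts lie in few cells. Tools were Python 3.11.15, numpy 2.4.6, scipy 1.17.1 and pandas 2.3.3. Alternatives were other thinning depths and seed, leaving out the deepest cell, each barcode set alone, other totals and sums, and a lower minimum count.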

Additional observations from a re-analysis of the deposited data

How the results depend on the processing

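Of 410 log2 ratios of named genes recomputed under other settings, 404 kept their direction and 294 stayed within the interval of the reported value. The genes were named for extreme ratios, so direction is a weak measure of stability. The 6 that turned are CHGA with CCL2, at -2.69 in barcode set 1, CTCF with CCL2, at -1.30 after thinning to 700 counts, MCM4 with CCL2, at -0.60 after thinning to 700 counts and -0.11 in set 1, RET with MDK, at -0.12 after thinning to 700 counts, and CCL2 with MDK, at 0.045 without the 10 cells highest in CCL2, a setting chosen after seeing the data. The cause was not tested. Of 13 genes named with CCL2, 2 were named again in set 1, 3 after thinning to 700 counts or with another seed, 4 after thinning to 1500 counts or from thinned sums, and 6 without the deepest cell, in set 2 or with a minimum of 50 counts. Of 13 named with MDK, 3 were named again after thinning to 700 counts, 5 after thinning to 1500 counts or with another seed, 6 in either set, 7 from thinned sums and 8 with a minimum of 50 counts. For C7 the lowest was 8, after thinning to 700 counts and in set 1, and for PTN 7, in set 2.

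Of 108 alternatives for levels, shares, counts per cell and pairs, 84 stayed within the counting error. Without ribosomal protein rows in the total, levels were 184 CPM for C7, 148 for CCL2, 291 for PTN and 509 for MDK. With every cell weighted equally CCL2 had 105 CPM, and C7 had 127 CPM in set 1 and 180 in set 2. Thinning to 700 counts gave positive shares of 8.46% for C7, 4.31% for CCL2, 11.3% for PTN and 25.9% for MDK, and 1.17 counts per MDK-positive cell. MDK was then in 33.3% of C7-positive and 27.9% of PTN-positive cells. Thinning to 1500 counts gave 9.74% for CCL2, 19.5% for PTN and 45.5% for MDK, with 1.89 counts per C7-positive and 2.07 per CCL2-positive cell, PTN in 56.4% of C7-positive cells and MDK in 52.4% of CCL2-positive cells. C7 was positive in 7.74% of cells in set 1 and 15.2% in set 2, and CCL2 was in 0% of the C7-positive cells of set 1.

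With 1 pool, differences between plates, cultures or samples could not be measured, and depth limits any statement on single cells: at 1100 counts per cell, negative means no count drawn, not no RNA. No paired analysis was possible because the columns of the table name no sample.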
